A study of Homo sapiens with 60 samples.

Results

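The response to topotecan was read in clone C6, 1 of 3 HEK293A clones edited to knock out TDP1. HEK293A is a line of human embryonic kidney cells transformed with adenovirus DNA. The comparison takes 8 of the 60 libraries of the study, chosen by the clone and treatment in their titles: 4 libraries of C6 cells given 100 nM topotecan in 0.1% DMSO and 4 libraries of C6 cells given 0.1% DMSO alone. Per the labels, cells grown in DMEM/F12 with 10% serum were treated for 5 to 5.5 hours, RNA was taken with Trizol, and directional libraries were made from poly(A) RNA of 4 biological replicates per group. Both groups carried the knockout, made with CRISPR/Cas9 and guides against constitutive coding exons. C6 is 1 clone. Unedited parental cells were not analysed here, and these data hold the response of knockout cells and no effect of the knockout itself. Beside this pair stand C6 cells given 100 nM topotecan with 5 µM OL9-119, C6 cells given 5 µM OL9-119 in 0.1% DMSO, untreated C6 cells, and the topotecan and DMSO libraries of the clones F7 and G6, each with 4 libraries. OL9-119 belongs to a series of compounds developed as TDP1 inhibitors. The label of the combination names no DMSO.

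Topotecan holds topoisomerase 1 (TOP1) on DNA at the moment when the enzyme has cut 1 strand. Replication forks and RNA polymerases that meet the trapped enzyme turn it into a lasting DNA lesion, and TDP1 is one of the enzymes that can take the TOP1 remnant off the DNA end. TOP1 itself relaxes the supercoils that build up around a moving RNA polymerase. DNA breaks in the nucleus are known to reach NF-kB, a family of transcription factors kept in the cytoplasm by the inhibitor NFKBIA, through the kinase ATM and the regulatory subunit IKBKG. They also signal through checkpoint kinases, which can hold cells before mitosis.

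The 4 topotecan libraries held 5315402 to 16236291 counts and the 4 DMSO libraries 5260709 to 15139095. Reduced to a common depth of 4500000 counts, they showed 17835 to 21561 detected genes. In 10 of the 20 C6 libraries fewer than 20000 genes were detected at that depth, among them topotecan replicates 1 and 4 and DMSO replicates 1 and 2, so that the 2 groups each held 2 such libraries. The mitochondrial share was 4.73 to 6.71% in topotecan libraries and 5.52 to 6.64% in DMSO libraries. Replicates differed by more than counting error, with a chi-square per degree of freedom of 2.88 to 28.3 between pairs of topotecan libraries and 6.11 to 18.7 between pairs of DMSO libraries. Genes listed for the HEK293 line (neuronal and embryonic kidney genes, 15 of 18 tested) summed to 1024 to 1070 CPM (counts relative to the size of the library) in topotecan libraries and 992 to 1044 CPM in DMSO libraries, with STMN2 at 0 in all 8. The summed markers of blood cells, hepatocytes and endothelium were low in both groups, and those of fibroblasts and muscle were higher. Those of blood cells came to 4.56 to 6.26 CPM in topotecan libraries and 2.29 to 5.82 CPM in DMSO libraries, with HBB and MS4A1 among those at 0. Those of fibroblasts and muscle came to 48.3 to 61.3 CPM in topotecan libraries and 48.2 to 63.6 CPM in DMSO libraries. THY1 was at 0, but COL1A1 had 14.9 to 28.2 CPM in topotecan and 14.9 to 25.4 CPM in DMSO libraries. ACTA2 had 14.8 to 20.4 and 17.9 to 23.3 CPM. Those of hepatocytes came to 0.0753 to 4.23 and 2.78 to 8.76 CPM, with APOA2, AHSG, F9 and TTR at 0. Those of endothelium came to 5.31 to 9.19 and 4.18 to 8.02 CPM, with EMCN and CLDN5 at 0.

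TDP1, on chromosome 14 (89954939 to 90044768, hg38, GENCODE 29), was read at 40.2, 28.9, 24.8 and 26.4 CPM in topotecan libraries, against 36.4, 33.1, 31.1 and 38.1 CPM in DMSO libraries. The groups overlapped, and the log2 change of -0.22 ± 0.15 (SE) did not pass the test (adjusted p = 0.688). A count over the whole gene includes exons outside any small edit, so this level checks neither the knockout nor the labels. TOP1, the target of the drug, had 242, 211, 207 and 296 CPM in topotecan libraries and 268, 334, 252 and 294 CPM in DMSO libraries. These groups overlapped too (log2 change -0.26 ± 0.14, adjusted p = 0.532).

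Of 16657 genes tested, 321 (1.93%) differed between topotecan and DMSO in C6 at an adjusted p under 0.05. Higher in topotecan libraries were 100 genes (0.6%) and lower were 221 (1.33%). At least 2-fold differences were seen for 58 of them, 27 higher and 31 lower. Apart from SNHG1, a host gene of small nucleolar RNAs, all called genes were protein-coding, out of 13746 protein-coding genes tested. The median log2 change over all tested genes was 0.03, with quartiles of -0.16 and 0.22. Topotecan and DMSO libraries did not overlap for 97 of the 100 genes called higher and 218 of the 221 called lower. Among all tested genes, 3.38% had every topotecan library above every DMSO library and 4.21% had every one below. The count of calls was 207, 165, 185 and 289 without topotecan replicate 1, 2, 3 or 4, and 192, 205, 340 and 198 without DMSO replicate 1, 2, 3 or 4. With the libraries of few detected genes left out it was 524, and in those libraries alone 205. Each of the 321 genes had the same direction in all of these fits, which reuse the libraries that gave the calls, so a reversal was unlikely from the start.

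Regulators and targets of NF-kB were the most strongly raised genes in topotecan-treated C6 cells. They held 8 of the 12 largest increases named here (only genes with a mean log2 CPM of 2 or more were eligible). TNFAIP3, the ubiquitin-editing enzyme A20 that shuts NF-kB signalling off (chromosome 6, 137867188 to 137883312), was at 114, 89.9, 83.6 and 91.2 CPM in topotecan libraries and at 15.5, 14.1, 18.6 and 14 CPM in DMSO libraries. Its lowest topotecan library stood far above the highest DMSO library, and the fold was 6.05 (log2 change 2.60 ± 0.14, adjusted p = 4.34e-11). NFKBIA, the cytoplasmic inhibitor (chromosome 14, 35401511 to 35404749), had 95, 100.8, 105.4 and 114.3 CPM in topotecan libraries and 36.9, 35.6, 39.8 and 35.7 CPM in DMSO libraries, a 2.8-fold rise (1.49 ± 0.10, adjusted p = 3.92e-09). Of the subunits, RELB (chromosome 19, 45001430 to 45038198) had 40.6, 41.2, 41.4 and 34 CPM in topotecan libraries and 7.18, 15.1, 16.8 and 13.9 CPM in DMSO libraries. NFKB2, the precursor of the partner of RELB, had 88.9, 88.2, 88.4 and 75.2 CPM in topotecan libraries and 37.7, 31.9, 56.6 and 38.3 CPM in DMSO libraries. Their log2 changes were 1.55 ± 0.28 (adjusted p = 0.00313) and 1.04 ± 0.16 (adjusted p = 0.000366), and neither gene's groups overlapped.

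These 4 were the called genes of the 17 subunits, inhibitors and kinases tested, beside 0.6% of all tested genes called higher. The median log2 change of the 17 was 0.46 against 0.03 over all genes. The other 13 did not pass. Among them RELA had a log2 change of 0.46 ± 0.14 (adjusted p = 0.122), BCL3, a nuclear co-regulator, 0.75 ± 0.27 (adjusted p = 0.228) and NFKB1 0.28 ± 0.12 (adjusted p = 0.352). The kinase subunits CHUK and IKBKB were at -0.02 ± 0.15 and -0.01 ± 0.13. Summed over the list, topotecan libraries held 912 to 956 CPM and DMSO libraries 578 to 674 CPM.

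The secreted and intracellular products of NF-kB target genes made up the second group, with 14 of 24 tested members called higher and none lower (median log2 change 1.10), against 0.6% of all tested genes called higher. The chemokine CXCL8, also known as interleukin 8 (chromosome 4, 73740506 to 73743716), had 107.1, 78.9, 76.3 and 126.6 CPM in topotecan libraries and 8.33, 10.6, 8.55 and 8.51 CPM in DMSO libraries. At 10.9-fold it was the largest change among the named genes (3.45 ± 0.29, adjusted p = 7.59e-08). CCL20, a chemokine that draws lymphocytes, had 23.7, 15.4, 17.4 and 22.4 CPM in topotecan libraries and 6.86, 3.58, 3.35 and 5.00 CPM in DMSO libraries (2.07 ± 0.25, adjusted p = 2.61e-05). For both chemokines every topotecan library was above every DMSO library. PTX3, a secreted pattern recognition molecule, had 31.3, 21.6, 22.8 and 29.2 CPM in topotecan libraries and a wider spread of 2.29, 11.9, 5.99 and 5.47 CPM in DMSO libraries (2.06 ± 0.28, adjusted p = 0.000127). TNFRSF9, a member of the TNF receptor family, had 38.7, 22.4, 23.8 and 26.7 CPM in topotecan libraries and 8.98, 9.36, 9.43 and 6.69 CPM in DMSO libraries (1.69 ± 0.21, adjusted p = 4.17e-05). IER3, a short-lived early response protein, had 181, 182, 200 and 175 CPM in topotecan libraries and 67.3, 63.7, 77.3 and 70.8 CPM in DMSO libraries (1.40 ± 0.11, adjusted p = 5.79e-08). SDC4, a heparan sulfate carrier of the cell surface, rose less but with little scatter, at 208.4, 204.1, 198.6 and 203.4 CPM in topotecan libraries and 126.7, 130.2, 128.5 and 124.7 CPM in DMSO libraries (0.67 ± 0.08, adjusted p = 1.33e-05).

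The other 8 called members lie outside the rule for named genes and are given because their list is described whole. The cytokine TNF was at 4.74, 4.78, 3.98 and 7.45 CPM in topotecan libraries and 1.47, 1.99, 0.793 and 0.338 CPM in DMSO libraries (2.32 ± 0.54, adjusted p = 0.0214). The chemokine CXCL2 was at 4.36, 3.39, 2.27 and 3.99 CPM in topotecan libraries and at 0, 0, 0.176 and 0.338 CPM in DMSO libraries. The counts of 0 in DMSO replicates 1 and 2 allow up to 0.475 and 0.57 CPM of the unscaled total, for counting error only, so the fitted change of 4.23 ± 0.66 (adjusted p = 0.000587) rests on very few DMSO counts. CXCL1 reached 1.71 ± 0.44 (adjusted p = 0.0442), from levels of at most 2.88 CPM. The transcription factor IRF1 (1.06 ± 0.15), the protease PLAU (1.20 ± 0.25), the apoptosis inhibitor BIRC3 (1.14 ± 0.24), GADD45B (0.72 ± 0.17) and the cytokine LIF (0.91 ± 0.23) also rose, with adjusted p between 0.000219 and 0.0397. Among the 10 members that did not pass, CXCL3 had the largest fitted change (2.92 ± 0.96, adjusted p = 0.156), ICAM1 stood at 1.22 ± 0.35 (adjusted p = 0.082), and TRAF1 was the single member below 0 (-0.24 ± 0.34, adjusted p = 0.88). The list summed to 1063 to 1117 CPM in topotecan libraries and 573 to 605 CPM in DMSO libraries. Without the libraries of few detected genes, 5 of the subunits and inhibitors and 15 of the targets were called higher. In those libraries alone the counts were 5 and 11. With 1 of the 8 topotecan and DMSO libraries left out, 4 of the subunits and inhibitors and 10 to 13 of the targets were called higher.

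Of the 4 NF-kB genes with the smallest p, the promoters of the 3 with an entry in the RefSeq promoter table are printed, since they show the letters that an NF-kB motif search found close to the start of the most strongly raised genes. Each is the 250 bases before a RefSeq transcript start (GRCh38.p14), 5′ to 3′ on the strand of the gene, with capitals marking matches of GGNNNTTCC (NF-kB type) or TGANTCA (AP-1 type) on either strand. The windows are chr6:137867009-137867258 on the plus strand, chr14:35404750-35404999 on the minus strand and chr4:73740319-73740568 on the plus strand.
TNFAIP3: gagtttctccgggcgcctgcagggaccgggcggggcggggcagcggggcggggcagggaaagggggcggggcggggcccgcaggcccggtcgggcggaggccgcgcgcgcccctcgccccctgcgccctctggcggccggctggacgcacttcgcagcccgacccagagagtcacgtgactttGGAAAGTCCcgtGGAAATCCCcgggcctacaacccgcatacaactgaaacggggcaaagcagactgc
NFKBIA: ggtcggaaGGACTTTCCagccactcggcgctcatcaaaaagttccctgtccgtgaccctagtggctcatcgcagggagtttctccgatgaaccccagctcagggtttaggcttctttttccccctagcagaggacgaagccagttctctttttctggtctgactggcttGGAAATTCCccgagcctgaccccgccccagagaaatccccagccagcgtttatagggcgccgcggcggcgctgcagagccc
CXCL8: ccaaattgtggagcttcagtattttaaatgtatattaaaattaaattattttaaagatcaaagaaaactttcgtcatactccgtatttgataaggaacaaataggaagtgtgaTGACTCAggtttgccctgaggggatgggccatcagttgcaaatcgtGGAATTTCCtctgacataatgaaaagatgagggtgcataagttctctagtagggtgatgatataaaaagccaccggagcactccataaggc
TNFAIP3 held 2 matches of the NF-kB type, GGAAAGTCC and GGAAATCCC, whose first bases lie 67 and 55 bases before the start. NFKBIA held GGACTTTCC at 242 bases and GGAAATTCC at 81 bases. CXCL8 held GGAATTTCC at 91 bases and the AP-1 type match TGACTCA at 137 bases. The NF-kB letters were found in 17.1% of all 35116 promoters of this length and in 19.1% of the promoters of tested genes. They were in 33 of 105 promoters of genes called higher (31.4%), in 50 of 327 of genes called lower (15.3%) and in 12 of 18 promoters of the called NF-kB genes (66.7%). Those 18 promoters are among the 105, so genes chosen for a list of NF-kB genes supply 12 of the 33. The AP-1 letters were in 6.57% of all promoters, 4.64% of those of tested genes, 6.67% of those of genes called higher and 3.06% of those of genes called lower. An entry was found for 11887 of 16654 tested symbols, 82 of the 100 genes called higher, 182 of the 221 called lower and 15 of the 18 called NF-kB genes. Promoters of 1 gene can share bases, and a match is a description of letters only.

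**Figure D1:**
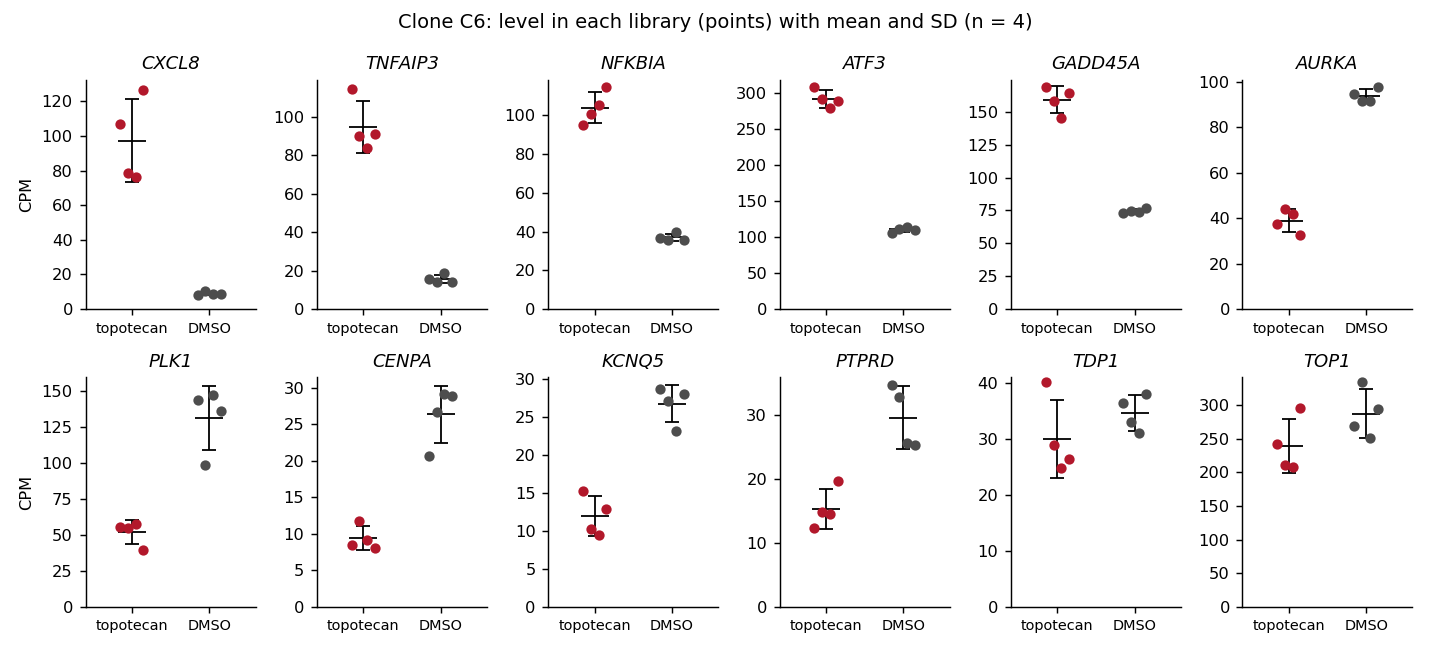
Level of 12 genes in CPM (vertical axes, from 0) in each of the 4 topotecan (red) and 4 DMSO (grey) libraries of clone C6, with mean and SD as bars. CXCL8 spans 76.3 to 126.6 CPM in topotecan libraries and 8.33 to 10.6 CPM in DMSO libraries, AURKA 32.6 to 43.9 and 91.4 to 97.6 CPM, while the groups overlap for TDP1 and TOP1.

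Some stress-induced transcription factors and phosphatases were also called higher. ATF3, a factor made in response to many kinds of stress (chromosome 1, 212565334 to 212620777), had 308, 292, 279 and 288 CPM in topotecan libraries and 106, 112, 114 and 110 CPM in DMSO libraries. Its change of 1.40 ± 0.08 (2.64-fold, adjusted p = 4.56e-11) had one of the 2 smallest p among the genes named here, beside TNFAIP3. JUN, a core subunit of the AP-1 factors, was at 574, 527, 541 and 467 CPM in topotecan libraries and 286, 266, 297 and 267 CPM in DMSO libraries (0.92 ± 0.11, adjusted p = 2.61e-05). JUNB varied more, with 66.7, 81.9, 77.1 and 42.2 CPM in topotecan libraries and 21.1, 20.1, 37.4 and 25.3 CPM in DMSO libraries (1.35 ± 0.28, adjusted p = 0.00968). For EGR1, an early growth response factor, the groups overlapped, since topotecan replicate 4 (70.6 CPM) lay below DMSO replicate 3 (75.3 CPM), though the change passed (0.96 ± 0.22, adjusted p = 0.0211). MAFF (1.20 ± 0.22, adjusted p = 0.00378) and KLF6 (0.54 ± 0.11, adjusted p = 0.00666) were also higher, as were FOSB (1.02 ± 0.24), FOSL1 (0.95 ± 0.24) and KLF10 (0.43 ± 0.11). In all, 9 of 29 AP-1 and immediate early genes were called higher and none lower (median 0.38), beside 0.6% of all tested genes called higher. Without DMSO replicate 1, 2 or 4 the count was 4, 4 or 5, and without topotecan replicate 1, 2 or 3 it was 5, 6 or 5. JUNB lost its call without DMSO replicate 1 or 2, and EGR1 when any one of these 6 libraries was left out.

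DUSP1, DUSP5 and DUSP8, phosphatases that switch MAP kinases off, were the called members of 10 tested (median 0.52), beside 0.6% of all tested genes called higher. DUSP1 had 105.2 to 123.2 CPM in topotecan libraries and 54.8 to 73.2 CPM in DMSO libraries (0.85 ± 0.12, adjusted p = 0.000114). The changes of DUSP5 (0.69 ± 0.16, adjusted p = 0.0225) and DUSP8 (0.80 ± 0.21, adjusted p = 0.046) were less certain, and every topotecan library of both still lay above the DMSO libraries. All 10 phosphatases had a fitted change above 0. DUSP1 alone was called without DMSO replicate 1, 2 or 4 or topotecan replicate 2 or 3.

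In the integrated stress response, in which ATF4 drives genes of amino acid supply and recovery, 5 of 31 genes were called higher, beside 0.6% of all tested genes, and none lower (median 0.30). Fitted changes above 0 were seen for 30 of the 31 and for 9053 of all 16657 genes. The median span of the list was 28.6 kb, and 29.5% of protein-coding genes of 10 to 30 kb had a change below 0. PPP1R15A, also called GADD34, which restarts translation, had 282.9, 278.3, 285.7 and 267.6 CPM in topotecan libraries and 122.1, 123.8, 152 and 148.7 CPM in DMSO libraries (1.02 ± 0.12, adjusted p = 1.02e-05). ATF4 itself moved by 0.28 ± 0.07 (adjusted p = 0.0337), with 449 to 459 CPM in topotecan libraries and 354 to 394 CPM in DMSO libraries. The factors DDIT3 (0.68 ± 0.17, adjusted p = 0.0304) and CEBPG (0.37 ± 0.10, adjusted p = 0.0475) and the glutathione-degrading enzyme CHAC1 (1.23 ± 0.32, adjusted p = 0.0475) passed narrowly. Only 1 to 2 of the 31 were called when topotecan replicate 1, 2 or 3 or DMSO replicate 1, 2 or 4 was left out, 3 were called without the libraries of few detected genes, and 3 in those libraries alone. Of 20 genes of the unfolded protein response, HERPUD1 (0.56 ± 0.13, adjusted p = 0.0178) and XBP1 (0.41 ± 0.11, adjusted p = 0.0458) were called higher and the list's median was 0.08. The calls of ATF4, CEBPG and XBP1 were lost when any one of the 8 libraries was left out, and that of HERPUD1 without topotecan replicate 1 or 3 or DMSO replicate 3 or 4.

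GADD45A, a stress-induced growth arrest gene (chromosome 1, 67685061 to 67688338), had 169, 158, 146 and 164 CPM in topotecan libraries and 73, 74.5, 74 and 76.8 CPM in DMSO libraries. The groups lay far apart (1.09 ± 0.10, 2.13-fold, adjusted p = 1.95e-07).

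Genes of the G2 phase and mitosis were lower in topotecan-treated C6 cells. Of 32 tested, 22 were called lower and none higher, against 1.33% of all genes called lower, and all 32 had a fitted change below 0 (median -0.74). The mitotic kinase AURKA (chromosome 20, 56369389 to 56392337) had 37.3, 43.9, 41.6 and 32.6 CPM in topotecan libraries and 94.4, 91.6, 91.4 and 97.6 CPM in DMSO libraries, a 2.41-fold lower level (-1.27 ± 0.11, adjusted p = 2.36e-07). CENPA, the histone variant that marks centromeres (chromosome 2, 26764289 to 26801067), had 8.53, 11.8, 9.19 and 8.06 CPM in topotecan libraries and 20.7, 26.7, 29.2 and 28.9 CPM in DMSO libraries, 2.8-fold lower (-1.48 ± 0.15, adjusted p = 2.74e-06). PLK1, the kinase that drives mitotic entry (chromosome 16, 23677656 to 23690367), had 55.7, 54.6, 57.6 and 39.7 CPM in topotecan libraries and 144, 98.4, 147 and 136 CPM in DMSO libraries, 2.54-fold lower (-1.34 ± 0.14, adjusted p = 5.22e-06). In each of these 3 genes the highest topotecan library was well below the lowest DMSO library. CCNB1, the cyclin of mitotic entry, was more even between replicates, with 120 to 130 CPM in topotecan libraries and 196 to 235 CPM in DMSO libraries (-0.79 ± 0.09, adjusted p = 1.76e-05). The checkpoint kinase BUB1B (-0.84 ± 0.10, adjusted p = 1.66e-05) and the motor protein KIF20A (-1.05 ± 0.13, adjusted p = 2.22e-05) fell with similarly small errors. CENPE, a kinetochore motor, fell by 1.22 on the log2 scale with a larger error of 0.29 (adjusted p = 0.0228), as topotecan replicate 4 (110.2 CPM) came near DMSO replicate 3 (125.4 CPM), and its call was lost without topotecan replicate 1, 2 or 3 or DMSO replicate 1, 2 or 4.

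The other 15 called members were BUB1, TPX2, CDC20, UBE2C, CENPF, DLGAP5, HMMR, TOP2A, CCNB2, KIF23, CCNA2, BIRC5, ASPM, KIF2C and TTK. Their log2 changes lay between -1.11 for HMMR, a spindle protein, and -0.35 for KIF2C, a microtubule-depolymerising motor. TOP2A, the topoisomerase that untangles chromosomes and a target of other cancer drugs, had 789, 661, 690 and 955 CPM in topotecan libraries and 1365, 1443, 1064 and 1309 CPM in DMSO libraries (-0.74 ± 0.15, adjusted p = 0.00863). The 10 that did not pass include CDK1 (-0.37 ± 0.16, adjusted p = 0.346), AURKB (-0.38 ± 0.12, adjusted p = 0.13) and CDC25B (-0.12 ± 0.15, adjusted p = 0.864). The list summed to 3940 to 4916 CPM in topotecan libraries and 5904 to 7436 CPM in DMSO libraries. Without the libraries of few detected genes 25 members were called lower, and in those libraries alone 22. A fit of the 8 libraries alone called 19 lower, and 15 to 20 were called with 1 of the 8 left out of the C6 fit. Bulk RNA does not tell fewer cells in a phase from less RNA per cell.

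Among genes of the preceding phases the calls were in the other direction. Of 34 genes of the G1/S transition and replication, 4 were called higher and none lower (median 0.28), beside 0.6% of all tested genes called higher. The count was 3 in a fit of the 8 libraries alone and 3 to 6 with 1 of them left out of the C6 fit. It was 10 with DESeq2, 11 in a fit of all 60 libraries and 15 with detection class as a covariate. In these 3 fits the genes called higher among all tested were 180, 300 and 454, in place of 100, so calls rose in general. CDC6, which loads the replicative helicase, had 242, 236, 242 and 252 CPM in topotecan libraries and 174, 179, 161 and 175 CPM in DMSO libraries (0.50 ± 0.08, adjusted p = 0.000944). CDC25A, a phosphatase of the cyclin-dependent kinases, had 130 to 149 CPM in topotecan libraries and 96.7 to 100 CPM in DMSO libraries (0.49 ± 0.08, adjusted p = 0.00202). E2F2, a transcription factor of this transition, changed by 0.67 ± 0.14 (adjusted p = 0.0119) and the helicase subunit MCM4 by 0.34 ± 0.07 (adjusted p = 0.00548). The groups of CDC6 and CDC25A did not overlap. E2F2 was not called without topotecan replicate 3 or DMSO replicate 1 or 4, and MCM4 was called neither without the libraries of few detected genes nor in those alone. None of 9 replication-dependent histone genes passed (median -0.31), and such messages mostly lack a poly(A) tail and are poorly held by this library type.

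**Figure D2:**
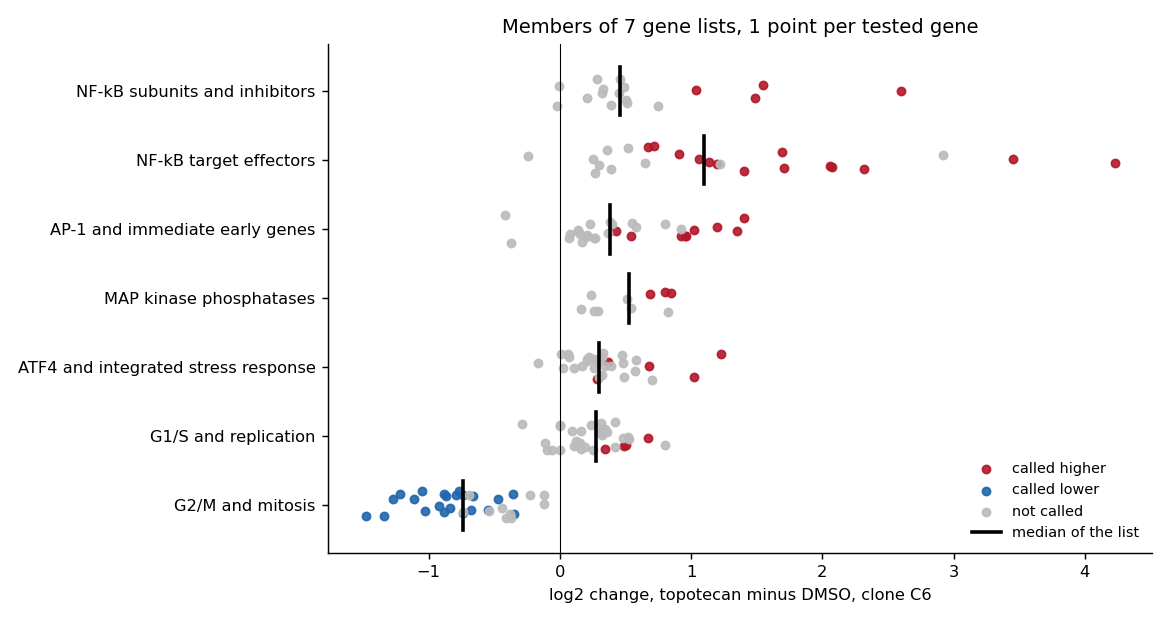
Log2 change, topotecan minus DMSO in clone C6 (horizontal axis), of each tested member (point) of 7 gene lists (rows), coloured by call, with the list median as a black bar. The medians are 0.46 and 1.10 for the 2 NF-kB lists and -0.74 for G2/M and mitosis, where all 32 points lie left of 0.

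Gene length went with the direction of change over the whole transcriptome. Span is the distance between the start and end of a gene in GENCODE 29. Genes called lower had a median span of 294 kb, genes called higher 11.7 kb and genes not called 33.6 kb. No gene over 200 kb was called higher. Of protein-coding genes under 10 kb 1.79% were called higher, and of those of 10 to 30 kb 1.06%. Median spans of the NF-kB, AP-1, phosphatase, integrated stress response and G1/S lists ran from 5.64 to 28.6 kb. The 0.6% of all tested genes set beside these lists therefore understates the share called higher among genes of their span. Of 916 protein-coding genes of 200 to 500 kb, 99 were called lower (10.8%), and of 200 genes over 500 kb 49 were (24.5%). The median log2 change went down with span, at 0.13 for genes under 10 kb, 0.11 for 10 to 30 kb, 0 for 30 to 100 kb, -0.12 for 100 to 200 kb, -0.31 for 200 to 500 kb and -0.52 for genes over 500 kb, where 86.5% of the genes had a change below 0. Span and log2 change had a rank correlation of -0.40 over the 13746 genes, and -0.52 over the 8978 genes whose mean log2 CPM reached 4. Changes were then taken as plain differences of mean log2 CPM, without a new fit. On these, the correlation was -0.45 without the libraries of few detected genes and -0.27 in those libraries alone. Genes are not independent replicates and share the 8 libraries, so no p is given. On the same differences, the median over 500 kb was -0.51 without the libraries of few detected genes and -0.48 in those libraries alone.

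The same contrast can be read in single libraries as the mean log2 CPM of the 1116 protein-coding genes over 200 kb minus that of the 6361 under 30 kb. This index was -0.35, -0.60, -0.58 and -0.25 in topotecan libraries and 0.10, 0.18, -0.22 and 0.01 in DMSO libraries. Every topotecan library was below every DMSO library, narrowly between topotecan replicate 4 and DMSO replicate 3. The index also differed between libraries within a group, being higher in those with few detected genes in all 5 C6 groups. The part of detection in the index was not tested. Untreated C6 libraries ran from -0.30 to 0.17, so that the lowest untreated library was below topotecan replicate 4.

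Several long genes were among the 12 strongest decreases. KCNQ5, a potassium channel gene of 577 kb (chromosome 6, 72621792 to 73198851), had 15.2, 10.3, 9.43 and 12.9 CPM in topotecan libraries and 28.7, 27.1, 23.2 and 28 CPM in DMSO libraries (-1.18 ± 0.17, adjusted p = 0.000315). FOXP2, a 607 kb transcription factor gene, had 9.1, 11, 13.9 and 13.3 CPM in topotecan libraries and 25.8, 41.2, 27.3 and 27.6 CPM in DMSO libraries (-1.34 ± 0.21, adjusted p = 0.000587). TSHZ2, a 523 kb zinc finger gene, had 8.34, 8.39, 7.41 and 8.43 CPM in topotecan libraries and 16.5, 17.5, 17.3 and 19.1 CPM in DMSO libraries (-1.12 ± 0.21, adjusted p = 0.00483). In each of the 3 the topotecan libraries stood apart below the DMSO libraries. NCKAP5 (897 kb, -1.38 ± 0.30, adjusted p = 0.0133), HS6ST3, a heparan sulfate sulfotransferase (749 kb, -1.22 ± 0.28, adjusted p = 0.0178), and ENOX1 (573 kb, -1.20 ± 0.24, adjusted p = 0.00717) fell too, with at most 18.3 CPM in any of the 8 libraries. NCKAP5 lost its call without topotecan replicate 2 or 3 or DMSO replicate 2, HS6ST3 without topotecan replicate 2 or 4 or DMSO replicate 2, and ENOX1 without the libraries of few detected genes. Very long genes differed among themselves. Of the 6 longest genes named here, the receptor phosphatase gene PTPRD (2300 kb) was called, with 12.3, 14.8, 14.6 and 19.7 CPM in topotecan libraries and 34.8, 32.9, 25.6 and 25.3 CPM in DMSO libraries (-0.93 ± 0.19, adjusted p = 0.0104), a call lost without topotecan replicate 1. CNTNAP2, of the same span, had 32.6, 23.9, 24.4 and 37 CPM in topotecan libraries and 25.5, 30.1, 19.8 and 22.8 CPM in DMSO libraries (0.27 ± 0.19, adjusted p = 0.697). DMD (-0.04 ± 0.21), PDE4D (-0.30 ± 0.21), MAGI2 (0.03 ± 0.23) and RBMS3 (-0.36 ± 0.31) did not pass either.

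The following long genes with broad roles in signalling and chromatin were picked from those called lower, so their direction is given by the choice. MED13L, a Mediator subunit (324 kb), had 96.3, 89.6, 93.1 and 93.4 CPM in topotecan libraries and 182, 169, 160 and 151 CPM in DMSO libraries (-0.83 ± 0.10, adjusted p = 2.54e-05). TRIO, a guanine nucleotide exchange factor (388 kb), had 114.1, 126.2, 125.4 and 115.9 CPM in topotecan libraries and 193.7, 215.2, 225 and 207.2 CPM in DMSO libraries (-0.80 ± 0.09, adjusted p = 1.33e-05). The axon guidance receptor ROBO1 (1170 kb, -0.83 ± 0.13), the chromatin remodelling subunit ARID1B (435 kb, -0.89 ± 0.13), the Ras regulator NF1 (287 kb, -0.66 ± 0.14) and the cohesin subunit STAG1 (416 kb, -0.70 ± 0.15) were lower as well. Of the 221 genes called lower, 148 spanned over 200 kb and 53 under 100 kb. Of those 53, 22 were on the G2/M list. Among the others were the Ki-67 antigen gene MKI67 (-0.64 ± 0.08), the actin-binding protein ANLN (-0.69 ± 0.15) and the nuclear import receptor KPNA2 (-0.60 ± 0.08), named after their values were seen.

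**Figure D3:**
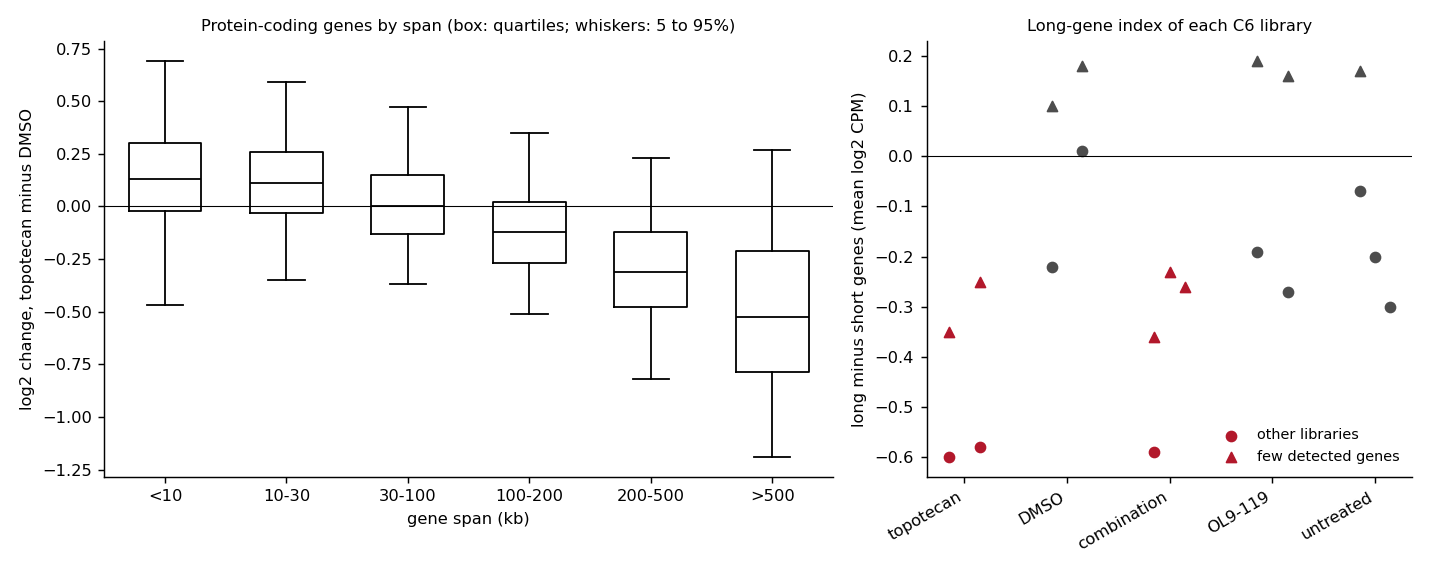
Left, log2 change (topotecan minus DMSO, clone C6) of 13746 protein-coding genes in 6 bins of gene span, as boxes of quartiles with whiskers at 5 and 95%. The median is 0.13 under 10 kb and -0.52 over 500 kb. Right, the long-gene index (mean log2 CPM of genes over 200 kb minus genes under 30 kb) of each of the 20 C6 libraries, with topotecan-containing groups in red and triangles for libraries with few detected genes; topotecan libraries lie between -0.60 and -0.25, DMSO libraries between -0.22 and 0.18.

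Beyond these lists, the 12 largest increases included TCIM, a regulator of Wnt signalling, with 15.5, 7.51, 9.68 and 16.1 CPM in topotecan libraries and 5.55, 5.97, 3.44 and 4.93 CPM in DMSO libraries (1.31 ± 0.27, adjusted p = 0.00902), and the zinc finger gene ZNF460 (1.30 ± 0.31, adjusted p = 0.0259). The 12 largest decreases included PSRC1, a spindle protein, with 12.1, 10.5, 9.68 and 8.58 CPM in topotecan libraries and 21.2, 21.9, 31.7 and 26.4 CPM in DMSO libraries (-1.33 ± 0.18, adjusted p = 0.00013). FAM72B (-1.51 ± 0.36, adjusted p = 0.0245) belongs to a family of nearly identical copies, so its counts may be split among them and its value is uncertain. Its call was lost without topotecan replicate 1, 2 or 3 or DMSO replicate 1 or 2, and that of ZNF460 without topotecan replicate 1 or 3 or DMSO replicate 1 or 4. Other called genes, chosen after their values were seen, were CD83, a surface protein of activated immune cells, with 57.3, 51.4, 53.2 and 57.1 CPM in topotecan libraries and 32.2, 34.6, 24.3 and 29.1 CPM in DMSO libraries (0.87 ± 0.12, adjusted p = 7.01e-05), the adaptor proteins TICAM1 (0.89 ± 0.23) and TIFA (0.75 ± 0.17), and the small GTPase RHOB (0.68 ± 0.11). NEDD9, a scaffold of focal adhesions, rose although it spans 199 kb (1.18 ± 0.18, adjusted p = 0.000585). PIF1, a DNA helicase read below the level required of named genes, had 0.19, 2.06, 1.9 and 0.151 CPM in topotecan libraries and 3.92, 4.18, 10.7 and 6.08 CPM in DMSO libraries (-2.41 ± 0.49, adjusted p = 0.00818).

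Some repair genes were called, beside 1.93% of all tested genes called. So few calls in a list are not read as a result about it. Of 24 genes of topoisomerases and TOP1 lesion repair, TOP2A was the single call (median 0.01). In homologous recombination and the Fanconi pathway, 25 genes tested, the nuclease EXO1 was higher (0.59 ± 0.11, adjusted p = 0.00304) and FANCC, a gene of 328 kb, was lower (-0.46 ± 0.10, adjusted p = 0.0135). No gene passed among 19 damage checkpoint genes (median 0.02), 22 heat shock chaperones (-0.04), 21 NRF2 targets (0.02), 26 interferon-stimulated genes (0.15), 15 BCL2 family genes (0.09), 23 sterol and lipid genes (0.09), 30 cytosolic ribosomal proteins (0.07), 30 nuclear respiratory chain genes (0.03), 13 mitochondrial mRNAs (-0.21) and 3 metallothioneins (-0.20). The same holds for the 15 genes of the HEK293 line (0.02) and the tested markers of blood cells (3 of 14), fibroblasts (7 of 12), hepatocytes (2 of 10) and endothelium (4 of 8). A p that misses the threshold does not show that these genes did not differ. Single calls came from HEXIM1, the inhibitor of the elongation kinase P-TEFb (0.55 ± 0.12, adjusted p = 0.0139, of 28 elongation genes), the splicing kinase gene SRPK2 of 289 kb (-0.50 ± 0.10, adjusted p = 0.00685, of 19), the glucose carrier SLC2A3 (-0.44 ± 0.11, adjusted p = 0.0381, of 26 HIF1 and glycolysis genes) and SNHG1 (0.52 ± 0.10, adjusted p = 0.00391, of 20 non-coding RNAs). Of 30 ribosome biogenesis genes UTP14A (0.50 ± 0.12) and NOLC1 (0.30 ± 0.08) were higher, beside 0.6% of all tested genes. Of 16 genes around YAP the factor TEAD1 (-0.63 ± 0.13, 270 kb) and CRIM1 (-0.49 ± 0.13, 195 kb) were lower, beside 1.33% of all tested genes. When single libraries were left out in turn, FANCC lost its call in 2 of the 8 fits, HEXIM1 in 4, UTP14A in 6, SLC2A3 and CRIM1 in 7 and NOLC1 in all 8.

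Adding topotecan to OL9-119 sets other C6 libraries against each other. These enter the first comparison only through the gene filter, the scaling and the shared estimate of the spread. In the combination minus OL9-119, 321 of 16657 genes (1.93%) were called, 218 of them lower (1.31%) and the others higher (0.618%). Of the 321 genes called for topotecan minus DMSO, 318 had the same sign here and 163 were also called, 50.8% of either list. For the genes called higher the median was 0.68 in topotecan minus DMSO and 0.43 in the combination minus OL9-119, and for those called lower it was -0.69 and -0.54. The genes were chosen by their call in topotecan minus DMSO, so smaller changes in the combination minus OL9-119 were likely from the start. Among NF-kB genes the 2 changes were 2.60 and 2.41 for TNFAIP3, 1.49 and 1.47 for NFKBIA and 3.45 and 3.06 for CXCL8. Among stress genes they were 0.92 and 0.45 for JUN, 1.02 and 0.63 for PPP1R15A and 1.23 and -0.30 for CHAC1, whose second value did not pass (adjusted p = 0.672). For these 3 genes the mean level with OL9-119 alone lay above that with DMSO. CHAC1 averaged 39.4 CPM in the combination, 48.7 CPM with OL9-119 alone and 4.21 CPM with DMSO. JUN averaged 539.2, 394 and 279.2 CPM in these groups, and PPP1R15A 301.9, 195.6 and 136.7 CPM. The test of the difference between the 2 changes called 1 of 16657 genes (0.006%). That gene was ATF3, with 1.40 ± 0.08 without OL9-119 and 0.71 with it (difference 0.69, adjusted p = 0.0274). ATF3 averaged 291.8 CPM with topotecan and 110.5 CPM with DMSO, and 314.3 CPM in the combination and 191.9 CPM with OL9-119 alone. With the prefix of the sample titles as a term the difference was the same and missed the threshold (adjusted p = 0.0547). An unadjusted p under 0.05 in this test was reached by 805 of 16657 genes, no more than this cut is set to pass where no gene differs. The combination minus OL9-119 had 82 calls without the libraries of few detected genes, where the 1 combination library left was assumed to vary like the other groups, and ATF3 then did not pass the test of the difference.

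Clones F7 and G6 were set beside C6 in a fit of all 60 libraries, 18985 genes tested. This fit called 894 genes in C6 (4.71%), with 300 higher (1.58%) and 594 lower (3.13%). In F7 it called 368 (1.94%), with 46 higher (0.242%) and 322 lower (1.7%), and in G6 1655 (8.72%), with 440 higher (2.32%) and 1215 lower (6.4%). Of the 321 genes called in C6 from its own libraries, 319 had the same sign in F7 and 171 were called there (53.3% of the C6 list and 46.5% of that of F7). In G6 all 321 had the same sign and 292 were called (91% and 17.6%). The 100 genes called higher in C6 had medians of 0.68 in C6, 0.27 in F7 and 0.52 in G6, and the 221 called lower had -0.69, -0.53 and -0.81. Genes over 500 kb had a median of -0.52 in both C6 and F7 and of -0.79 in G6.

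The test of the C6 change against the mean of the F7 and G6 changes called 6 genes (0.0316%), 3 above and 3 below 0 (0.0158% each). Of 18985 genes in this test, 808 were under an unadjusted p of 0.05, fewer than this cut is set to pass where no gene differs. TNFAIP3 rose by 2.57 in C6, 0.50 in F7 and 2.35 in G6 (difference 1.15 ± 0.13, adjusted p = 8.12e-08). In this fit's scaling it had 117, 92.1, 87 and 95.1 CPM in topotecan libraries of C6 and 16.1, 14.6, 19.5 and 14.8 CPM in its DMSO libraries. F7 had 78.9, 77.4, 85.5 and 84.4 CPM with topotecan and 64.4, 58.8, 51.6 and 56.2 CPM with DMSO. G6 had 154, 130, 151 and 137 CPM with topotecan and 25.1, 29.8, 25.6 and 31.2 CPM with DMSO. F7 stood apart by its high DMSO level, and its topotecan libraries still lay above its DMSO libraries. ATF3 changed by 1.38, 0.29 and 1.14 in C6, F7 and G6 (difference 0.67 ± 0.08, adjusted p = 8.12e-08) and GADD45A by 1.07, 0.38 and 0.77 (0.50 ± 0.10, adjusted p = 0.0136). Among lowered genes the difference passed for AURKA (-1.29, -0.38 and -0.88; difference -0.65 ± 0.09, adjusted p = 3.2e-05), CENPA (-1.50, -0.38 and -0.85; -0.89 ± 0.14, adjusted p = 0.000466) and KIF20A (-1.07, -0.25 and -0.67; -0.61 ± 0.11, adjusted p = 0.00187). In all 6 genes the change was largest in C6 and smallest in F7. They were chosen by a difference between C6 and the mean of F7 and G6, so an extreme change in C6 was likely from the start. The order of C6 and G6 was not tested. All 4 DMSO libraries of C6 had less AURKA than any DMSO library of F7 (at least 164 CPM) or G6 (at least 146 CPM). CXCL2 came next and did not pass (2.76 ± 0.59, adjusted p = 0.0512), followed by KPNA2 and LINC00511 (adjusted p = 0.0766 each). The count of 6 became 10 without DMSO replicate 3 of C6, and 10 with the title prefix as a term.

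**Figure D4:**
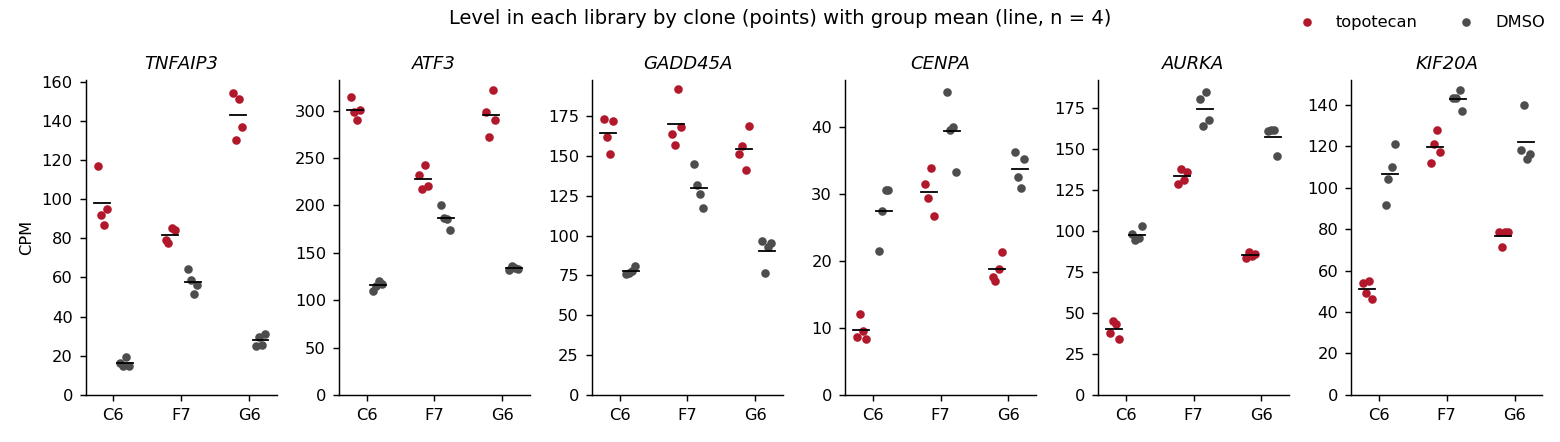
Level in CPM (vertical axes, from 0) of the 6 genes whose topotecan change in C6 differed from the mean of F7 and G6, in each topotecan (red) and DMSO (grey) library of the 3 clones, with group means as lines (scaled over all 60 libraries). TNFAIP3 in DMSO libraries lies at 14.6 to 19.5 CPM in C6 and 51.6 to 64.4 CPM in F7.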

How the data were processed

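Poly(A) RNA was sequenced from 60 libraries, 20 of clone C6, in groups of 4 taken from the sample titles. The authors deposited raw counts per Ensembl gene, with no normalisation. Build hg38 and the tools STAR 2.7.8, FastQC 0.11.9 and Picard 2.26.6 are listed in the submitters' processing notes. How reads were counted, and whether by strand, is not given in the sources used here. Overlapping and antisense genes therefore cannot be told apart. Positions were taken from GENCODE 29 (58275 of 58395 identifiers) and symbols from a table of current names (41885).

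Topotecan minus DMSO was tested by the 2-sided quasi-likelihood F test of edgeR 4.0.16 under R 4.3.3, with filterByExpr and TMM scaling, on the 20 C6 libraries with 1 mean per group, so that all 5 groups share 1 estimate of the spread. The comparison between clones used all 60 libraries. Adjusted p are Benjamini-Hochberg values over all genes tested, called under 0.05. Errors of log2 changes (±) are SE. CPM were computed from the counts with TMM-scaled totals, and log2 CPM with a prior count of 2. Detection was compared after thinning to 4500000 counts (seed 1). Intervals and floors (3 counts) cover counting error only. The fits were tested on simulated data.

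Named genes are TDP1 and TOP1, the 12 highest and 12 lowest called log2 changes with a mean log2 CPM of 2 or more and all topotecan libraries on 1 side of the DMSO mean, up to 6 called members of each list by p (or the 2 with the highest level), the 8 smallest p for the clone difference and the 6 longest genes. The comparison and the 33 lists were chosen with earlier results of these data known. Some genes and 1 list are not reported here. Promoters come from RefSeq. Alternatives were other libraries, scalings, filters, DESeq2 1.42.0, a replicate block, a term for the title prefix and leaving out libraries.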

Additional observations from a re-analysis of the deposited data

Results flagged for a closer look

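Among topotecan libraries of C6, replicate 4 stood apart most often. It was lowest for RELB (34 CPM, nearest 40.6 CPM), NFKB2 (75.2 CPM, nearest 88.2 CPM), PLK1 (39.7 CPM, nearest 54.6 CPM) and the phosphatases DUSP1 (105.2 CPM, nearest 120.8 CPM) and DUSP8 (24.6 CPM, nearest 35.1 CPM). It was highest for the apoptosis inhibitor MCL1 (329.5 CPM, nearest 286.8 CPM) and the sterol synthesis enzyme HMGCS1 (333.6 CPM, nearest 253.3 CPM). Replicate 1 was highest for the ferritin subunit FTH1 (708.1 CPM, nearest 611.6 CPM) and the mitochondrial message MT-CO1 (13544 CPM, nearest 9867 CPM) and lowest for the redox protein TXN (432.4 CPM, nearest 532.4 CPM). TSHZ2 was lowest in replicate 3 (7.41 CPM, nearest 8.34 CPM).

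Among DMSO libraries, replicate 2 was highest for CXCL8 (10.6 CPM, nearest 8.55 CPM) and FOXP2 (41.2 CPM, nearest 27.6 CPM). Replicate 3 was lowest for BUB1B (136.9 CPM, nearest 160.3 CPM), the chaperone HSP90AA1 (2897 CPM, nearest 3469 CPM) and TXN (488.3 CPM, nearest 563.3 CPM). TNFRSF9 was lowest in replicate 4 (6.69 CPM, nearest 8.98 CPM). In all, 17 of 210 groups of 4 libraries over the named genes and 4 library measures held a library whose gap to the nearest, relative to the range, was above the critical value of Dixon's test for 4 samples. Chance flags about 1 in 20 groups, and groups of the same libraries are not independent.

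The topotecan change in C6 differed from the mean of F7 and G6 for TNFAIP3 (1.15 on the log2 scale), ATF3 (0.67), GADD45A (0.50), KIF20A (-0.61), AURKA (-0.65) and CENPA (-0.89). In C6 itself the change of ATF3 was larger without OL9-119 than with it, by 0.69. Its mean was 110.5 CPM with DMSO and 191.9 CPM with OL9-119 alone, and 291.8 CPM with topotecan and 314.3 CPM in the combination.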

How the results depend on the processing

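Of the 321 called genes, all kept their sign in every alternative that tested them (319 of 319 where a mean log2 CPM of 1 was required), and none of the named genes reversed over 21 alternatives. Every alternative reuses libraries that gave the calls, so reversals of called genes were unlikely from the start. For calls, calls higher and calls lower, the numbers were 321, 100 and 221 as reported. All 60 libraries gave 894, 300 and 594, DESeq2 574, 180 and 394, and the fit without libraries of few detected genes 524, of which 397 lower. The 8 libraries alone gave 219, 47 and 172. A term for detection class gave 1222, 454 and 768, and only the libraries of few detected genes 205, 70 and 135; these 2 were added after seeing the data. The cause of these shifts was not tested, beyond the numbers of libraries fitted. Leaving out 1 library gave 165 to 340 calls, 45 to 114 higher and 107 to 226 lower. RLE scaling gave 314 calls, upper-quartile scaling 372, no filter 355, a minimum log2 CPM of 1 gave 360 and robust dispersion 317. The difference between median changes of genes over 200 kb and under 30 kb was -0.45, and -0.53 to -0.38 with 1 library left out.

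Correlations of same-numbered topotecan and DMSO libraries were 0.13, -0.43, 0.60 and 0.02 over 12130 genes (deviations from the group means). The numbers were not taken to pair the samples. Same-numbered C6 libraries share a title prefix (L01, L02 or L03, with L02 for numbers 2 and 3) that the labels do not explain. With that prefix as a term, added after seeing the data, 339 genes were called (110 higher, 229 lower), 10 for the difference between clones and 0 for the dependence on OL9-119 (edgeR, 833 at an unadjusted p under 0.05). With the replicate block 427 genes were called in C6 (140 higher, 287 lower), and 11 in place of 6 for the difference between clones. The count of 6 became 5 to 10 with 1 C6 library left out. For the combination minus OL9-119, 82 genes in place of 321 were called without the libraries of few detected genes. For the dependence on OL9-119, 13 genes in place of 1 were called with no filter, and 0 without those libraries (edgeR, with 1177 genes at an unadjusted p under 0.05). In the shallowest of the topotecan and DMSO libraries, with 5260709 counts, 3 counts stand for 0.57 CPM, and lower levels were not detectable at this depth.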
